A study of Mus musculus with 8 samples.

Results

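Amino acids enter and leave cells through membrane carriers of several solute carrier families, and 6 of these families were examined here in samples labelled as pancreatic beta cells from mice on a control or a high-fat diet. Members were all genes named Slc1a, Slc3a, Slc7a, Slc36a, Slc38a or Slc43a plus a number on the array. A gene counted as measured if at least 1 of its probes was well above background on at least 4 of the 8 arrays. By this rule 42 genes with 58 probes were on the array, and 31 genes with 40 probes were measured, out of 19994 genes measured in all. A gene with several measured probes was represented by its brightest one, and for all 31 genes that probe was well above background on all 8 arrays. The 11 genes that were not measured were Slc1a1, Slc1a2, Slc1a3, Slc36a2, Slc43a1, Slc7a9, Slc7a10, Slc7a11, Slc7a12, Slc7a13 and Slc7a15. Their probes were well above background on at most 3 arrays.

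The animals were C57BL/6 mice on a chow control diet or a high-fat diet. There were 4 samples per diet, labelled as biological replicates, and each sample was read on its own one-colour array with Cy3. The beta cell material was frozen at sacrifice. The age of the mice, the length and fat content of the diet and the way the cells were isolated are not given in the sources used here, nor is it stated whether animals were pooled. The 8 arrays lay on 2 slides with 2 arrays of each diet per slide. Control samples took positions 1 and 3 and high-fat samples positions 2 and 4 of both slides, so position on the slide and diet cannot be told apart. Levels are log2 intensities relative to the array's 75th percentile, which lay between 335.8 and 715.4 intensity units, and can be compared between samples for a gene but not between genes.

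Carriers differ in what they move and how. The cationic carriers of the Slc7a family let arginine and lysine into the cell. The light chains of the same family pair with a heavy chain of the Slc3a family and exchange neutral, cationic or acidic amino acids. The Slc38a carriers bring in glutamine, alanine and other small neutral amino acids together with sodium, and the islet responds to several of these amino acids with hormone secretion. The Slc1a family holds the glutamate carriers and the neutral exchangers, the Slc36a family moves small amino acids with protons, and the Slc43a family includes carriers of large neutral amino acids.

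The stretches of transcript that stand for the genes followed most closely are shown first, since each level below rests on 1 probe. Each line gives the opening 30 of the 60 bases of the probe, 5′ to 3′, as deposited, for the markers Slc38a5 and Slc7a2 and for the genes that differed most clearly between the diets. Positions follow the mm9 build named in the file headers.
Slc38a5: cctagatgaagctgttagggttaccctggc
Slc7a2: ttttttactgtggacaaaaaagacacagat
Slc38a8: ctgccaactcctaactctgctatcgaagga
Slc38a4: ctaacctggaagtatccacttgtgtagtta
Slc38a2: aaggttccaaatgaatttcaggccaaattc
Slc7a4: ggaagtggcttcagcccctgagacccagaa

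The probe of Slc38a5 lies on the plus strand at chrX:7857241-7857300, and that of Slc7a2 on the plus strand at chr8:42002869-42002928. The probes of Slc38a2 (chr15:96518491-96518550) and Slc38a4 (chr15:96825482-96825541) lie on the minus strand of the same chromosome, as does that of Slc38a1 (chr15:96406793-96406852). The probe of Slc38a8 lies on the minus strand at chr8:122003505-122003564 and that of Slc7a4 on the minus strand at chr16:17573049-17573108. The position within the gene (exon, UTR) was not analysed here.

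Cell type markers were looked at before the carriers. The insulin genes were well above background on all 8 arrays, with Ins1 at 8.25 ± 0.26 in the control and 8.28 ± 0.32 in the high-fat group (SD, n = 4). Glucagon (Gcg, the alpha cell hormone) stood at 7.92 ± 0.20 and 7.75 ± 0.24, and the acinar elastase Cela3b at 8.52 ± 0.55 and 8.82 ± 0.45, so RNA of other islet and of exocrine cells was present in all samples. The log2 of the summed level of 14 acinar genes ranged from 11.14 to 12.12 in control and from 11.41 to 12.21 in high-fat samples. That of 10 alpha cell genes ranged from 9.07 to 9.35 and from 9.18 to 9.34, although the median difference of the single alpha cell genes was -0.67. In such mixed samples fewer cells of a type and less RNA per cell cannot be told apart.

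In 3 of the 8 samples transcripts of the small intestine were also found, and these samples stood apart in this respect. All 15 genes of a list chosen after the values were seen (among them Fabp2, Apoa1, Lct and Muc2) were well above background in control replicate 4, high-fat replicate 2 and high-fat replicate 4, against 4 or 5 of 15 in each of the other 5 samples. Fabp2, the fatty acid binding protein of enterocytes, stood at 2.65, 4.23 and 4.40 in those samples and between -4.79 and -3.62 in the others. The log2 of the summed level of the list was 4.87, 5.76 and 6.08, against 3.14 to 3.55 elsewhere. Since 2 of these samples were on the high-fat diet and 1 on the control diet, results are also given for the 3 control and 2 high-fat samples that remain.

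Between the diets no carrier changed past the threshold. With limma and adjustment over all genes, 0 of 31 members passed an adjusted p of 0.05, where the share over all 19994 genes was 0%. The smallest adjusted p of a member was 0.804. At an unadjusted p under 0.05, 3 members were higher and 0 lower on the high-fat diet, where 2.59% of all genes were higher and 3.27% lower. The 4 high-fat samples lay above the 4 control samples without overlap for 2 members (1.72% of all genes) and below them for 0 members (1.65% of all genes). The counts rest on single samples. At an unadjusted p under 0.05 there was 1 member without control replicate 2 (5.49% of all genes). There were 0 without high-fat replicate 2 or 3 (4.48% and 4.19% of all genes). Without control replicate 4 or without high-fat replicate 4, 4 members did not overlap. The share of all genes with no overlap was not computed there, and with fewer samples no overlap is reached more easily.

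Of the 31 members, 17 had a log2 difference (high-fat minus control) above 0 and 14 below 0, with a median of 0.090 against 0.00093 over all genes. The differences ran from -0.63 for Slc38a1 to 0.54 for Slc36a3. The median was 0.15 for the 11 Slc38a genes, 0.16 for the 2 Slc3a genes, 0.091 for the 9 Slc7a genes, 0.090 for the 3 Slc36a genes and 0.035 for the 4 Slc1a genes. It was -0.14 for the 2 Slc43a genes. With the probes of a gene averaged, the median over all members was -0.041 and that of the Slc38a genes -0.055, and on slide 2 alone they were -0.13 and -0.10. On slide 2 the Slc36a and Slc1a medians were -0.33 and -0.25. Over all members the median was -0.0021 without control replicate 1 and 0.0060 without high-fat replicate 1. The genes that met a criterion in any family were Slc38a8, Slc38a4 and Slc7a4 at an unadjusted p under 0.05, and Slc38a2 and Slc38a4 with no overlap.

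**Figure D1:**
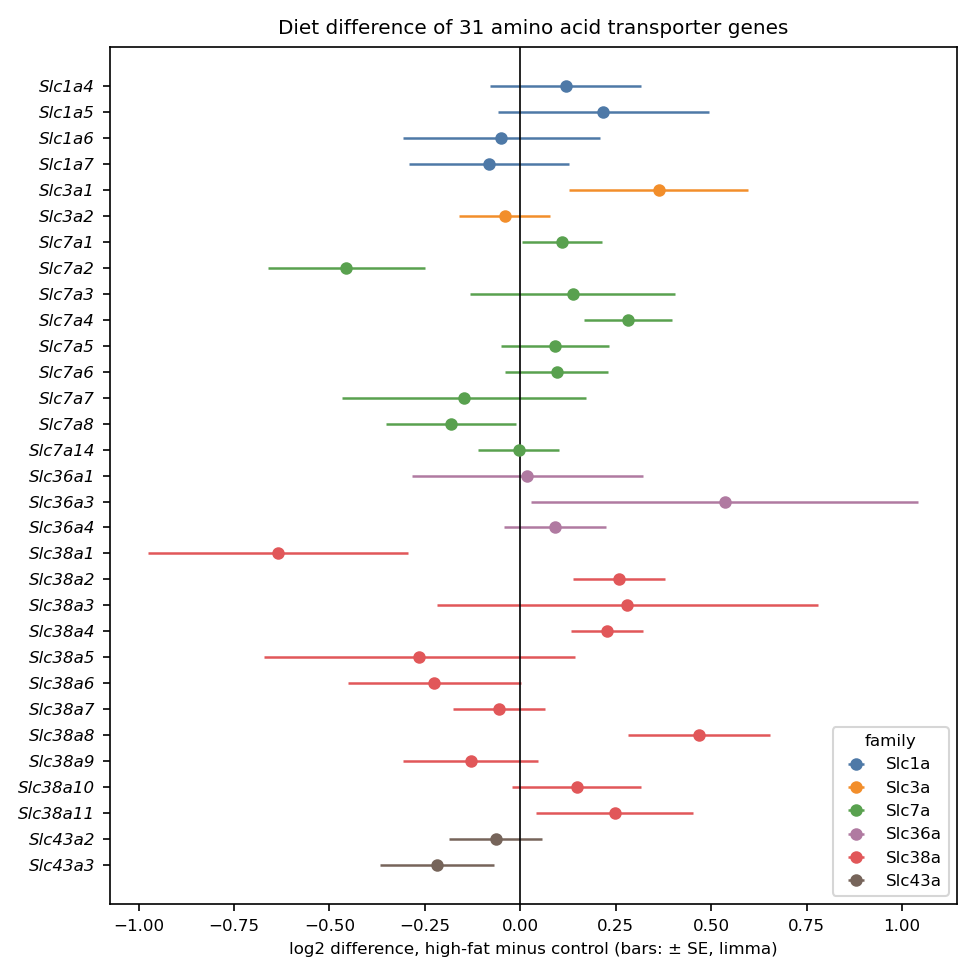
Log2 difference between the diets for each of the 31 carriers measured, grouped by family; points are limma estimates and bars ± SE with 4 samples per diet. The differences run from -0.63 (Slc38a1) to 0.54 (Slc36a3), with 17 above 0 and 14 below, and 0 pass the adjusted threshold.

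Slc38a4 and Slc38a2, both sodium-coupled carriers of system A for small neutral amino acids, were the genes in which the diets did not overlap. Slc38a4 stood at 1.82, 1.87, 2.03 and 1.81 in control replicates 1 to 4 and at 2.05, 2.12, 2.09 and 2.17 in high-fat replicates 1 to 4. Every high-fat sample lay above every control sample, with control replicate 3 just below high-fat replicate 1. The difference was 0.23 ± 0.094 (SE, limma adjusted p = 0.82), and it was 0.24 on slide 1 and 0.21 on slide 2. With normexp background correction in place of the scanner's own it was -0.14. This was also the member with the smallest spread within a diet, with a pooled SD of 0.079 against a median of 0.28 over members.

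Slc38a2 encodes SNAT2, the system A carrier known to be induced when amino acids are scarce. Its levels were 2.45, 2.49, 2.16 and 2.08 in control samples and 2.55, 2.53, 2.62 and 2.52 in high-fat samples. The high-fat samples lay close together and above all control samples, and the control samples split by slide, with slide 1 high and slide 2 low. The difference was 0.26 ± 0.12 (SE, limma adjusted p = 0.85), from 0.068 on slide 1 to 0.45 on slide 2, and it was -0.15 with normexp background correction. Slc38a1, the remaining system A gene, had the largest difference of any member in the other direction, -0.63 ± 0.34 (SE, limma adjusted p = 0.884), and its control range of -2.42 to -1.48 overlapped with the high-fat range of -3.60 to -2.08.

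Slc38a8, a sodium-coupled neutral carrier, had the smallest p of the members. It stood at -3.27, -3.22, -3.31 and -2.58 in control samples and at -2.82, -2.37, -2.61 and -2.71 in high-fat samples. The groups overlapped because of control replicate 4, which was as high as the high-fat samples, and the other 3 control samples lay below all of them. The difference was 0.47 ± 0.19 (SE, limma adjusted p = 0.80), a 1.38-fold higher signal, with 0.65 on slide 1 and 0.29 on slide 2. Without control replicate 4 it was 0.64. It was 0.10 in the deposited value table, 0.28 with normexp without smeared spots and 0.71 with normexp on all spots.

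Slc38a5, a marker named for these families, encodes SNAT5, a system N carrier of glutamine, histidine and asparagine that has been linked to alpha cell growth in mice. Its levels were 1.92, 2.90, 3.70 and 2.66 in control samples and 3.29, 2.59, 1.89 and 2.36 in high-fat samples. The diets overlapped over nearly the whole range, with the highest sample on slide 1 from the high-fat diet and the highest on slide 2 from the control diet. The difference was -0.26 ± 0.41 (SE, limma adjusted p = 0.953), with 0.52 on slide 1 and -1.05 on slide 2, and leaving out a sample took it to -0.56 (control replicate 1), -0.051 (high-fat replicate 3) or 0.037 (control replicate 3). The related system N gene Slc38a3 differed by 0.28 ± 0.50, with 1.34 on slide 1 and -0.78 on slide 2.

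The other Slc38a genes lay between -0.22 and 0.25 and overlapped between the diets. Slc38a9, which encodes a lysosomal protein that signals arginine to the growth regulator mTORC1, differed by -0.13 ± 0.18, and all 3 of its probes were below 0. Slc38a7, also a lysosomal carrier, differed by -0.055 ± 0.12, Slc38a10 by 0.15 ± 0.17 and Slc38a6 by -0.22 ± 0.23. For Slc38a11 the 2 probes disagreed in direction, with 0.25 for the brighter and -0.36 for the dimmer one.

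**Figure D2:**
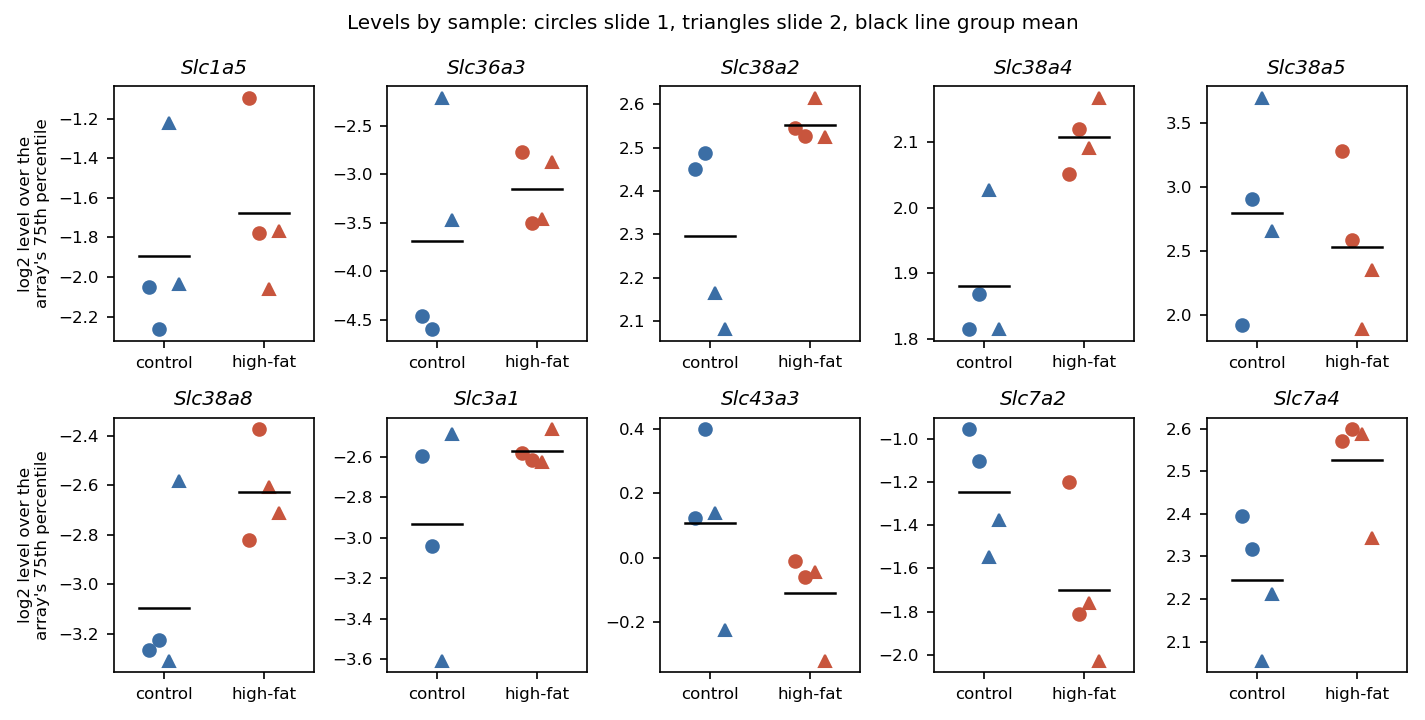
Log2 level in every sample for the 10 carriers followed most closely, control in blue and high-fat in red, with circles for slide 1, triangles for slide 2 and a black line at the group mean; each panel has its own scale. The diets do not overlap for Slc38a2 and Slc38a4, and in Slc38a8 control replicate 4 lies among the high-fat samples.

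Among the 5 cationic genes of the Slc7a family, 1 was higher at an unadjusted p under 0.05 and 0 were lower, where 2.59% and 3.27% of all genes were, and the median difference was 0.11. Slc7a2, the other named marker, encodes CAT-2, a carrier of arginine, lysine and ornithine. It stood at -0.95, -1.10, -1.54 and -1.37 in control samples and at -1.20, -1.81, -1.76 and -2.03 in high-fat samples. High-fat replicate 1 lay among the control samples and the other 3 high-fat samples lay below all controls. The difference was -0.46 ± 0.21 (SE, limma adjusted p = 0.84), and it was -0.48 on slide 1 and -0.43 on slide 2. With the slide as a block the gene was lower at an unadjusted p under 0.05 (limma adjusted p = 0.62, from 0.30 to 1.00 over the alternatives run). It reached -0.62 without high-fat replicate 1, was -0.13 in the deposited value table and was 0.061 with normexp background correction.

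Slc7a4, a protein of the same branch whose transport activity is not established, went the other way. Its levels were 2.39, 2.32, 2.05 and 2.21 in control samples and 2.57, 2.60, 2.59 and 2.34 in high-fat samples. Only high-fat replicate 4 reached into the control range, and the difference was 0.28 ± 0.12 (SE, limma adjusted p = 0.81), with 0.23 on slide 1 and 0.33 on slide 2. It was -0.11 with normexp background correction and 0.018 with its probes averaged. A second, much dimmer probe of the gene gave -0.24 ± 0.93, too wide a spread to set a direction. CAT-1 (Slc7a1), the widely expressed arginine carrier, differed by 0.11 ± 0.10, CAT-3 (Slc7a3) by 0.14 ± 0.27 and the lysosomal protein Slc7a14 by -0.0043 ± 0.11, with -0.43 ± 0.23 at its dimmer probe.

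The heavy and light chains did not differ past any of the criteria. Slc3a2, the heavy chain 4F2hc of the exchangers at the cell surface, stood at 4.14 ± 0.16 in the control and 4.09 ± 0.13 in the high-fat group (SD, n = 4), with a difference of -0.041 ± 0.12 (SE). Its partners LAT1 (Slc7a5), LAT2 (Slc7a8), y+LAT1 (Slc7a7) and y+LAT2 (Slc7a6) differed by 0.091 ± 0.14, -0.18 ± 0.17, -0.15 ± 0.32 and 0.095 ± 0.14. The median of the 4 was -0.028. For Slc7a5 the dimmer probe gave -0.045 ± 0.23. The heavy chain rBAT (Slc3a1), known from cystine uptake in kidney and intestine, was at -2.60, -3.04, -3.61 and -2.49 in control samples and at -2.58, -2.62, -2.62 and -2.46 in high-fat samples. Here the high-fat samples lay close together within the upper control range, and control replicate 3 was lowest. The difference of 0.36 ± 0.24 (SE) was 0.14 without that sample, 0.15 with normexp without smeared spots and 0.060 in the deposited value table.

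In the Slc1a, Slc36a and Slc43a families 0 of 9 members were past any of the criteria. Slc1a5, the glutamine exchanger ASCT2, stood at -2.05, -2.26, -1.22 and -2.04 in control samples and at -1.09, -1.78, -2.06 and -1.77 in high-fat samples, with 1 high sample in each diet. It differed by 0.22 ± 0.28 (SE), with 0.72 on slide 1 and -0.29 on slide 2, and it was 0.023 without high-fat replicate 1, 0.093 without control replicate 2 and 0.44 without control replicate 3. Its neutral relative ASCT1 (Slc1a4) differed by 0.12 ± 0.20, and the glutamate carriers Slc1a6 and Slc1a7 by -0.049 ± 0.26 and -0.082 ± 0.21.

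Slc36a3 had the largest positive difference and the widest spread. It stood at -4.47, -4.60, -2.21 and -3.47 in control samples and at -2.77, -3.50, -3.46 and -2.87 in high-fat samples, so the control samples alone spanned more than the high-fat samples did. The difference was 0.54 ± 0.51 (SE), with 1.40 on slide 1 and -0.33 on slide 2, and it was 0.23 and 0.28 without control replicate 2 or 1 and 1.03 without control replicate 3. In the deposited value table it was 0.066 and with normexp without smeared spots 0.26. A second probe of this gene did not pass the background filter. The proton-coupled carriers PAT1 (Slc36a1) and PAT4 (Slc36a4) differed by 0.019 ± 0.30 and 0.090 ± 0.13. Their dimmer probes gave 0.21 ± 0.29 and -0.20 ± 0.26, so the direction of Slc36a4 differed between its probes.

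Slc43a3, a family member known to carry purine nucleobases, stood at 0.12, 0.40, 0.14 and -0.22 in control samples and at -0.0094, -0.060, -0.046 and -0.32 in high-fat samples. Replicate 4 was the lowest of its diet in both groups, and the diets overlapped through control replicate 4. The difference was -0.22 ± 0.15 (SE), with -0.30 on slide 1 and -0.14 on slide 2. Leaving out control replicate 2 gave -0.12, and leaving out control replicate 4 gave -0.33, which was lower at an unadjusted p under 0.05 (limma adjusted p = 0.948). LAT4 (Slc43a2) differed by -0.064 ± 0.12.

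The estimated difference between the diets had opposite signs on the slides for 13 carriers, each slide with 2 samples per diet. The median over all genes was 0.028 on slide 1 and -0.046 on slide 2. The sign was the same on both slides for 18 members, 58.1% against 52.4% of all genes. For 11 members (35.5%, against 29.7% of all genes) the high-fat samples were higher on slide 1 and lower on slide 2, and for 2 members the reverse held. When the change of the diet difference between slides was tested as an interaction in limma over the 19864 genes with a value on all arrays, 6 members were lower on slide 2 at an unadjusted p under 0.05, where 5.38% of all genes were. In the other direction there were 0 members, against 1.48% of all genes. None of the 31 passed after adjustment, with a smallest adjusted p of 0.709, and 0 of all genes did.

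The 6 genes were Slc36a1, Slc1a6, Slc7a3, Slc7a8, Slc38a3 and Slc36a3. The interaction was -2.11 ± 0.76 (SE) for Slc38a3 and -1.12 ± 0.39 for Slc7a3. For Slc36a1, the proton-coupled carrier PAT1, slide 1 gave 0.57 and slide 2 gave -0.53, which average to near 0. The acinar genes moved with them, with a median difference of 0.57 on slide 1 and -0.38 on slide 2. The hormone genes Ins1, Ins2 and Iapp did so too, with 0.38, 0.44 and 0.39 against -0.32, -0.34 and -0.32. Other hormone genes were mixed. Gcg went the same way (0.10 and -0.43) and Ppy the reverse way (-0.41 and 0.34). Sst (-0.33 and -0.44) and Pyy (-0.18 and -0.10) were lower on both slides. The pattern was not particular to the carriers. The medians on slides 1 and 2 were 0.64 and -0.20 for duct cell genes, 0.16 and -0.095 for amino acid metabolism and 0.21 and -0.024 for the amino acid response. The medians of the remaining lists did not change sign in this direction. The 13 beta cell genes as a list did not show this pattern, with medians of -0.062 and -0.22, and G6pc2 (0.30 and 0.37) and Slc2a2 (-0.22 and -0.72) kept their sign. The part of the acinar transcripts in the slide pattern was not tested.

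**Figure D3:**
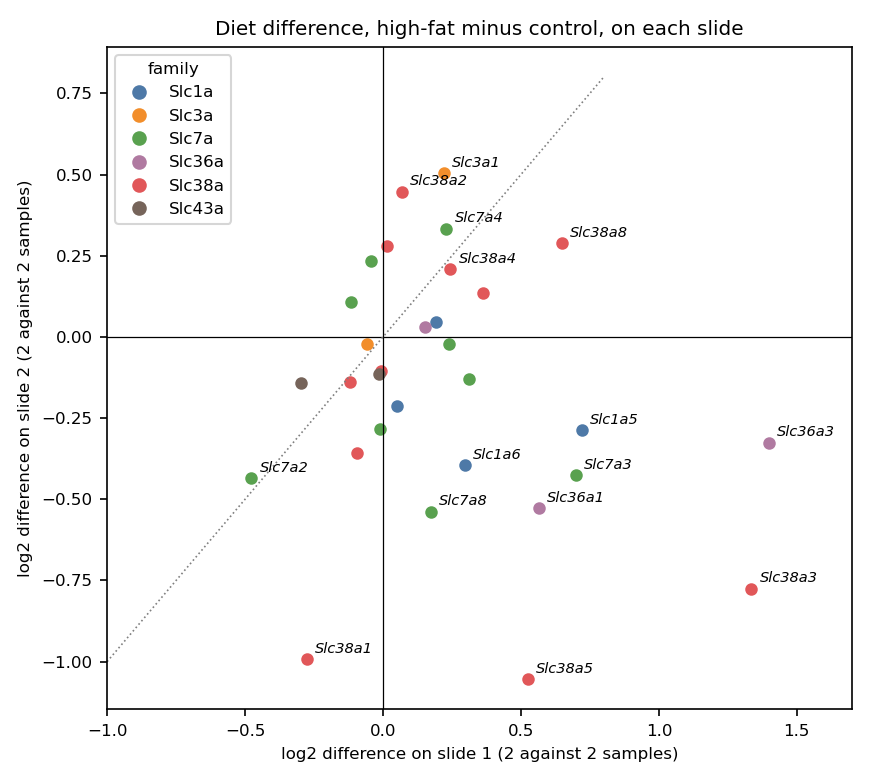
Log2 difference between the diets on slide 1 (horizontal) and slide 2 (vertical) for each of the 31 carriers, coloured by family, each from 2 control and 2 high-fat samples; the dotted line marks equal differences. Slc7a2, Slc38a4 and Slc7a4 lie near the line, while Slc38a3, Slc36a3 and Slc38a5 lie to the lower right.

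Several carriers varied with the level of acinar transcripts in the samples. The mean log2 level of the 14 acinar genes was 6.15, 6.77, 7.29 and 6.68 in control replicates 1 to 4 and 7.36, 6.97, 6.45 and 6.72 in high-fat replicates 1 to 4. The relation of each carrier to this level was computed over the 8 samples with exact permutation tests, 31 relations in all, adjusted by Benjamini and Hochberg. Pearson's r was at least 0.8 for 6 of 31 carriers, against 3.48% of all genes.

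Slc38a3 encodes SNAT3, a system N carrier of glutamine. It stood at -2.46, -1.84, -0.38 and -1.76 in control and at -0.27, -1.36, -1.94 and -1.75 in high-fat samples, highest in control replicate 3 and high-fat replicate 1, the samples richest in acinar transcripts, and lowest in control replicate 1, the poorest. Pearson's r was 0.96 (exact permutation p = 0.000124, adjusted p = 0.00384) and Spearman's rho 0.93 (exact permutation p = 0.00223, adjusted p = 0.0692). For Slc7a3 r was 0.94 (exact permutation p = 0.00169, adjusted p = 0.0261) and rho 0.76 (exact permutation p = 0.0368, adjusted p = 0.228). For Slc38a5 r was 0.90 (exact permutation p = 0.0036, adjusted p = 0.0372) and rho 0.83 (exact permutation p = 0.0154, adjusted p = 0.159).

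For these 3 genes r stayed at 0.94, 0.85 and 0.90 without high-fat replicate 1 and control replicate 1, the samples farthest from the median acinar level. Slides hold 4 samples each, too few for a correlation within a slide, and with the means of diet and slide removed r was 0.96, 0.97 and above 0.99. By rank 0 of the 31 relations passed after adjustment. The arrays' 75th percentile moved against the acinar level, with a Pearson's r of -0.85 in log2. It was 715.4 intensity units in control replicate 1 and 335.8 and 362.7 in control replicate 3 and high-fat replicate 1. Its part in these relations was not tested.

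Slc7a1, Slc1a5 and Slc7a5 had r of 0.86, 0.82 and 0.80 (adjusted exact permutation p = 0.0586, 0.0793 and 0.0793) and did not pass. For Slc7a1 r was 0.62 without the 2 samples named above. At the other end, the lysosomal protein Slc7a14 had r of -0.74 (adjusted exact permutation p = 0.155). Among the genes with the largest or clearest diet differences r ranged widely. It was 0.028 for Slc38a8, 0.41 for Slc38a4, -0.13 for Slc7a4, -0.17 for Slc38a2, -0.15 for Slc7a2, 0.34 for Slc38a1 and 0.71 for Slc36a3, with adjusted exact permutation p from 0.164 (Slc36a3) to 0.985 (Slc38a8). With the means of diet and slide removed r was -0.71 for Slc7a4, -0.61 for Slc38a2 and 0.88 for Slc36a3.

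**Figure D4:**
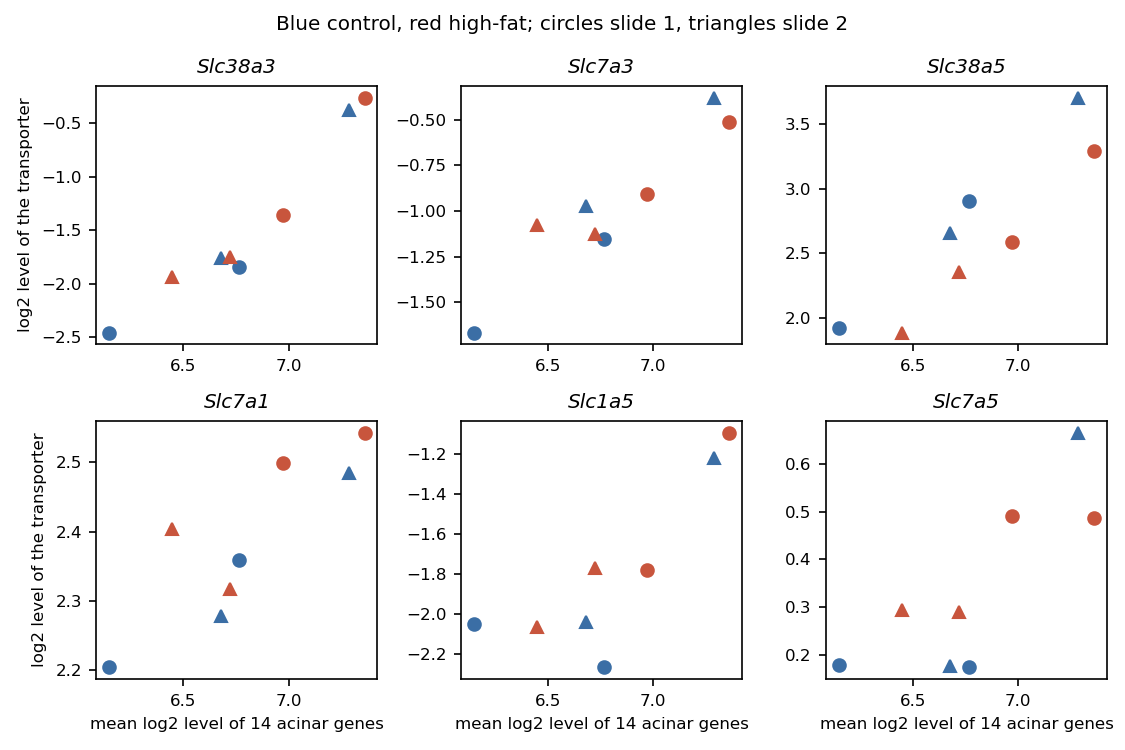
Log2 level of 6 carriers (vertical) against the mean log2 level of 14 acinar genes (horizontal) in each of the 8 samples, control in blue and high-fat in red, circles for slide 1 and triangles for slide 2. Slc38a3, Slc7a3 and Slc38a5 are highest in control replicate 3 and high-fat replicate 1 and low in control replicate 1.

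Some carriers that did not count as measured gave signal in the samples with intestinal transcripts. Slc7a9, the light chain b0,+AT that pairs with rBAT in intestine and kidney, stood at -2.90, -2.22 and -1.85 in control replicate 4 and high-fat replicates 2 and 4. In the other 5 samples, where it was not well above background, its probe lay between -7.51 and -7.10. Slc7a15 was well above background on 2 arrays, those of replicate 4 of both diets. Slc1a1 did not follow the intestinal transcripts in this way. It was well above background on 3 high-fat and 0 control arrays. Its level was -4.11, -4.69 and -4.42 in high-fat replicates 2, 3 and 4 and -5.44 in control replicate 4. Slc7a7, the light chain y+LAT1, was measured in all samples, at -1.01, -0.64, -0.53 and -0.64 in control and at -1.20, -0.46, -1.63 and -0.11 in high-fat samples. Its highest samples were high-fat replicates 2 and 4, which held intestinal transcripts, and its lowest were high-fat replicates 1 and 3, which did not. Control replicate 4, which also held them, lay at -0.64 within the range of the other control samples. The mean log2 level of 7 macrophage genes was -0.074 and 0.058 in high-fat replicates 2 and 4 and -0.70 and -0.64 in 1 and 3. That of 7 lymphocyte genes was -1.86 and -1.21 against -3.57 and -3.69. The source of the Slc7a7 signal was not tested.

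**Figure D5:**
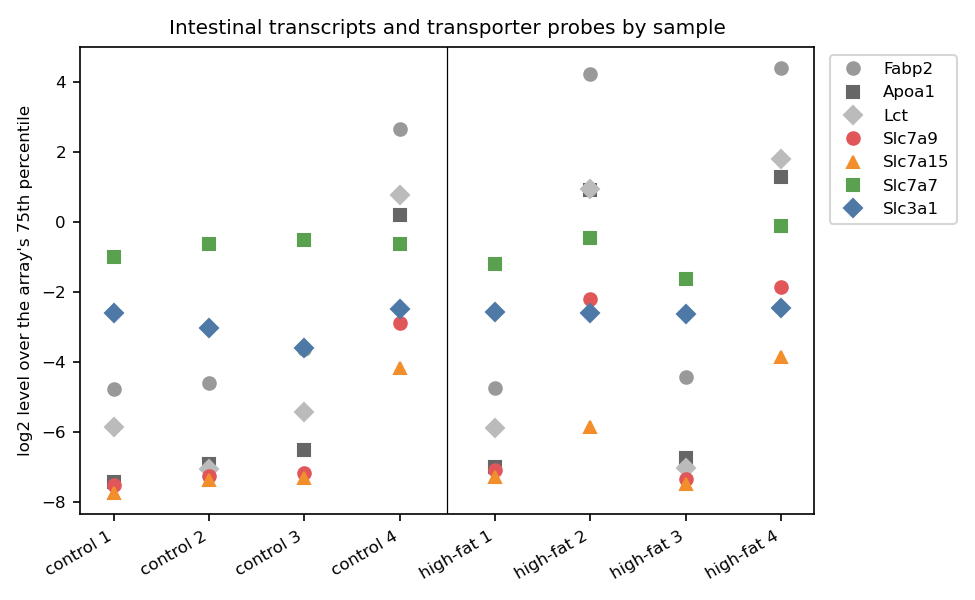
Log2 level by sample of intestinal transcripts (Fabp2, Apoa1 and Lct, in grey) and of the carriers Slc7a9, Slc7a15, Slc7a7 and Slc3a1 (in colour). Slc7a9 is raised in control replicate 4 and high-fat replicates 2 and 4, the samples in which Fabp2 lies between 2.65 and 4.40, and lies below -7 in the others.

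With those 3 samples left out, 3 control and 2 high-fat samples remained, and 0 of 31 members passed the adjusted threshold. At an unadjusted p under 0.05, 1 member was higher (0.665% of all genes) and 2 were lower (3.24% of all genes). Slc38a8 was higher by 0.55 ± 0.16, while Slc38a1 and Slc7a7 were lower, by -1.13 ± 0.39 and -0.69 ± 0.23 (SE, limma adjusted p of 0.763 for Slc38a8 and 1.00 for the others). No overlap was seen for 6 higher members (4.98% of all genes) and 3 lower members (8.23% of all genes). For Slc7a2 the difference was -0.28 ± 0.27, for Slc38a5 -0.25 ± 0.65, for Slc7a4 0.32 ± 0.17, for Slc38a2 0.21 ± 0.17 and for Slc38a4 0.17 ± 0.16. Slc1a6, Slc38a6, Slc38a7, Slc38a9 and Slc7a14 changed sign, and all of them were within 0.23 of 0 in both fits.

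Genes that work with the carriers were compared from lists of other carriers, enzymes and sensors. Of 23 other amino acid carriers, 1 was higher and 0 were lower at an unadjusted p under 0.05, with a median difference of 0.12, where the shares over all genes were 2.59% and 3.27%. It was Pqlc2, which exports cationic amino acids from lysosomes, at 0.28 ± 0.10 (SE, limma adjusted p = 0.78). Of 40 genes of amino acid metabolism, 3 were higher and 2 lower at that p (2.59% and 3.27% of all genes). The proline synthesis enzymes Pycr1 and Aldh18a1 were higher by 0.58 ± 0.12 and 0.29 ± 0.11 and the serine synthesis enzyme Psat1 by 0.42 ± 0.15. Arginase (Arg1) was lower, at -0.42 ± 0.13, as was argininosuccinate synthase (Ass1, named after its value was seen), at -0.98 ± 0.40. None passed after adjustment, with a smallest adjusted p of 0.407.

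Of 24 genes of the amino acid response, the transcriptional programme run by ATF4 when amino acids are short, 1 was higher (Psat1 again) and 0 were lower at that p (2.59% and 3.27% of all genes), with a median of 0.087. Of 34 genes of amino acid sensing by mTORC1, 0 were higher and 0 lower, and Wdr59 had the smallest p of them at 0.23 ± 0.11 (SE, limma adjusted p = 0.842). Of 20 aminoacyl-tRNA synthetases, 0 were higher and 0 lower, and Kars had the smallest p at 0.22 ± 0.13 (SE, limma adjusted p = 0.894).

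Promoters were searched for the sequence to which ATF4 is known to bind in amino acid response genes, as TGATGNAA on either strand. The table of RefSeq promoters (GRCm38.p6, 250 bases before to 50 after a start site) held 32 promoters of 23 of the 31 measured carriers, matched by symbol. The letters were found in 3 of these, in the genes Slc1a4 and Slc7a7, and in 3.97% of all 32851 promoters. The matches are shown with their surroundings, 30 bases each on the strand of the gene, with the matching letters in capitals.
Slc1a4, chr11:20332699-20332728: tgcctcctgcgTTGCATCAtctccagcctg
Slc7a7, chr14:54418067-54418096: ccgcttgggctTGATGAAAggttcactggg
Slc7a7, chr14:54417927-54417956: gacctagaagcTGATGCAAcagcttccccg

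The match in Slc1a4 began at -4 from the start site, and those in Slc7a7 at -141 and -1. Both genes lie on the minus strand, and the second Slc7a7 match also lay in a further start site's promoter. Slc1a4 stood at 1.00 ± 0.32 in the control and 1.11 ± 0.28 in the high-fat group and Slc7a7 at -0.70 ± 0.21 and -0.85 ± 0.69 (SD, n = 4), and neither differed between the diets past the spread of the replicates. The promoter of Slc7a11, the cystine exchanger, held the letters at -66 and -47, and the gene was not measured.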

How the data were processed

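Agilent Feature Extraction 11.5.1.1 wrote the scanner files, per the file headers, which hold the processed signal of each spot as an intensity, background-subtracted by that software, for 43020 non-control spots per array (63.6% to 68.6% well above background, 0 saturated). The authors also deposited a table of log2 values for 28061 probes of the same arrays (column medians 8.68 to 8.69); how it was normalized is not stated in any source used here, and it served as an alternative. The submitters' processing notes name limma.

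From the intensity, log2 minus the array's 75th percentile was computed, leaving out control spots and 125 to 228 outlier spots per array. Spots of a probe were averaged, and probes well above background on 4 or more of the 8 arrays were kept (26076); the brightest probe represented a gene. The diets were compared with limma 3.58.1 (lmFit, eBayes) in R 4.3.3 over all genes, 4 samples against 4, with Benjamini-Hochberg adjustment at 0.05. The fit was run on simulated data with independent noise for each gene and added differences larger than those of the carriers here. The simulation held no slide or acinar component, so it cannot tell how well differences of the size seen here are found. The number of arrays limits the precision. The samples are labelled biological replicates without mention of separate animals, so the p-values measure the spread between these samples.

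Members and lists were chosen with earlier results of these data known. Values in every sample are given for Slc38a5 and Slc7a2, for members at an unadjusted p under 0.05 or with no overlap, and for the member with the largest difference in a family with neither. From each other amino acid list at most 4 genes with the smallest p are named, and Ass1 in addition. Cell type and hormone genes were not named by this rule. Slc38a3 and Slc7a7 were followed, the intestinal list was written and the relation to acinar level was computed after values were seen. Alternatives were normexp with an offset of 50, with or without smeared spots, quantile and median scaling, the deposited table, filters, averaged probes, a trended and robust eBayes, slide and replicate blocks, single slides, and leaving out samples in turn.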

Additional observations from a re-analysis of the deposited data

Results flagged for a closer look

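In 5 of the 62 groups of 4 samples formed by 31 carriers and 2 diets, a single sample lay far from the other 3. About 1 in 20 was taken as the chance share. The share over all genes was not computed, so the 5 cases are listed as single values and not as a trait of the carriers. Slc38a8 was high in control replicate 4, at -2.58 against -3.31 to -3.22 in the other control samples, and this is the sample that made the diets overlap. Slc7a4 was low in high-fat replicate 4, at 2.34 against 2.57 to 2.60. Slc43a3 was low in the same sample, at -0.32 against -0.060 to -0.0094. Control replicate 4 and high-fat replicate 4 held intestinal transcripts, whose part in these values was not tested. Slc38a11 was low in high-fat replicate 1, at -3.24 against -2.69 to -2.63. Slc7a5 was high in control replicate 3, at 0.66 against 0.17 to 0.18, and control replicate 3 had the highest acinar level of the control samples.

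Slc7a9, which was not counted as measured, gave -2.22 in high-fat replicate 2 and -1.85 in high-fat replicate 4, both above the highest control sample at -2.90. All 3 samples held intestinal transcripts, and in the other 5 the probe was not well above background.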

How the results depend on the processing

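The number of carriers past the adjusted threshold was 0 under every alternative run. The count at an unadjusted p under 0.05 was 3 here, where 5.86% of all genes were at that p. It was 0 with normexp background correction (0.74% of all genes) and 1 with quantile normalization (5.58%). With slide as a block it was 5 (7.34%), and Slc38a2 and Slc7a2 were gained. It was 1 on slide 2 by itself (7.51%) and from 0 to 3 without single samples (4.09% to 10.4%). The count with no overlap (2 here) was 0 with normexp and 1 with quantile or median scaling. It was 18 on slide 1 alone and 14 on slide 2 alone, with 2 samples per diet. Without the intestinal samples it was 9, where 4.98% of all genes were higher and 8.23% lower. It ran from 2 to 4 without single samples. With fewer samples no overlap is reached more easily. The share over all genes was not computed on single slides or without single samples, so those counts are not a result about the carriers. The median over all members was -0.041 with averaged probes, -0.13 on slide 2 and from -0.0021 to 0.12 without single samples. That of Slc38a was -0.055 and -0.10 in the same settings and from -0.074 to 0.21 without single samples, and that of Slc7a was -0.13, of Slc36a -0.33 and of Slc1a -0.25 on slide 2. Normexp gave 0.57 for Slc1a and -0.24 for Slc43a. Signs turned on slide 2 for Slc1a5 (-0.29) and Slc36a3 (-0.33), on slide 1 for Slc38a5 (0.52), and without control replicate 3 for Slc38a5 (from -0.56 to 0.037 over single samples). Normexp turned Slc38a2 (-0.15), Slc38a4 (-0.14), Slc7a2 (0.061) and Slc7a4 (-0.11). It also moved the median of all genes to 0.13, and without the smeared spots of each array these 4 kept their sign. Among genes below that p, the share that was higher was 66.5% with median scaling and 67.5% on slide 1, against 44.2% here. With the replicate block, 2 carriers were at an unadjusted p under 0.05, Slc7a4 (higher) and Slc7a2 (lower, limma adjusted p = 0.501), against 9.27% of all genes. Deviations of same-numbered samples correlated at 0.21, 0.40 and 0.30 in 3 pairs and at -0.0041 in the pair numbered 3. Of 8 samples, 6 were most like their own number, a hint of pairing that the labels do not state. Same-numbered samples also lay side by side on the same slide, so pairing and placement cannot be told apart. Correlations between the diets ran from -0.078 to 0.40 within a slide and from -0.29 to 0.16 between slides. The comparison was kept unpaired because the labels state no pairing. The pair numbered 3 did not deviate together, which does not exclude pairing of the others. Other causes of these shifts were not tested. Dim probes limit what the arrays resolve, and 4 of 8 carriers with several measured probes had probes of opposite sign (Slc36a4, Slc38a11, Slc7a4 and Slc7a5).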

Other observations

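Carriers differed in how much they varied between samples of the same diet. The pooled SD within a diet was largest for Slc36a3 (0.83), Slc38a3 (0.81) and Slc38a5 (0.66) and smallest for Slc38a4 (0.079), Slc7a1 (0.11) and Slc7a14 (0.11), with a median of 0.28 over the 31 carriers against 0.25 over all genes. Slc38a3, Slc38a5 and Slc7a1 of these had r of at least 0.8 with the acinar level.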
